A study of Mus musculus with 2 samples.

Results

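Interferon regulatory factors (IRFs) and STAT2 are the DNA-binding proteins that turn interferon and pathogen signals into transcription, and 8 of their genes (Irf1, Irf2, Irf3, Irf5, Irf7, Irf8, Irf9 and Stat2) were followed here in mouse osteoclast precursors with and without Foxo3. They were chosen by symbol, with earlier results of these data known, and all 8 were found among the 16614 genes listed in both libraries. The study has 2 libraries of poly-A RNA from bone marrow macrophages of C57BL/6 mice, 1 from WT and 1 from Foxo3 KO cells. Marrow was cultured for 3 days in M-CSF, which yields macrophages, and both libraries come from cells then exposed for 2 days to RANKL, the cytokine that drives macrophages towards osteoclasts. The series title names an isoform of FoxO3, a forkhead transcription factor, and a role in restraining osteoclasts. The labels give no age, no number of mice per library and no description of the knockout allele, and no library without RANKL was analysed here.

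IRF3, IRF5 and IRF7 wait in the cytoplasm and are phosphorylated after Toll-like receptors or nucleic acid sensors are engaged, and IRF3 and IRF7 then switch on interferon genes. STAT2 and IRF9 act downstream of type I interferon through the interferon-stimulated response element (ISRE), and Irf1 is induced through the gamma-activated site (GAS), which STAT dimers bind. IRF2 occupies many of the same elements and often opposes IRF1. IRF8 is a myeloid lineage factor that pairs with PU.1 and is known to hold back osteoclast formation, in part by restraining Nfatc1.

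Irf8 was the member with the largest difference, at 29.0 FPKM (fragments per kilobase and per library size) in WT and 20.3 FPKM in KO cells. Irf1 differed in the opposite direction, at 31.0 and 38.0 FPKM. The other 6 lay closer together: the KO values of Irf9, Irf2 and Irf7 were 99.4%, 98.2% and 96.8% of their WT values. With 1 library per genotype no value has a replicate error and no test was possible, so each difference describes these 2 libraries and not the genotypes.

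The promoters of Irf1 and Irf8, the pair at the ends of the range, are shown first because both hold a match to the GAS element, together with the stretches of Irf2 and Stat2 that hold an ISRE core. Windows run from 250 bases before to 50 bases after a RefSeq transcription start on GRCm38.p6, and all 8 genes matched by symbol, with 11 windows in all. Capitals mark matches to TTCNNNGAA (GAS, the same on both strands), to GAAA, any 2 bases and GAAA (ISRE core) or to GGAA, any 2 bases and GAAA (the composite element bound by an ETS factor such as PU.1 with an IRF), each searched on both strands. The Irf1 window lies at chr11:53769764-53770063, that of Irf8 at chr8:120736108-120736407, the Irf2 stretch at chr8:46739495-46739544 and the Stat2 stretch at chr10:128270261-128270306, all on the + strand.
Irf1: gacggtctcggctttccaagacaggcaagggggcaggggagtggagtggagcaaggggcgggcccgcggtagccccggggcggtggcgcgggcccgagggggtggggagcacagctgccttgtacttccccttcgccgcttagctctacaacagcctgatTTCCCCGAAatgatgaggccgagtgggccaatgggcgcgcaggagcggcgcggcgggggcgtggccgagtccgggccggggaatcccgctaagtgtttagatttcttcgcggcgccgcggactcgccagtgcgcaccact
Irf8: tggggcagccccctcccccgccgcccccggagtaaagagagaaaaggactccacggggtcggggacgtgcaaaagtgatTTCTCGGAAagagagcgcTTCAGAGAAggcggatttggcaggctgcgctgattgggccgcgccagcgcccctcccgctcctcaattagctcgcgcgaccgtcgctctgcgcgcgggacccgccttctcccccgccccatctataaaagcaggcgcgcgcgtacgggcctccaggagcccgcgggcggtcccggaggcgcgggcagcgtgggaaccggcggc
Irf2: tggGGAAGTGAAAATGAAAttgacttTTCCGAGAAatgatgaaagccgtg
Stat2: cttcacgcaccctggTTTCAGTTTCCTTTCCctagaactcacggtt

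Irf1 has 1 GAS match, TTCCCCGAA, at -90 to -82 from its start. Irf8 has 2 GAS matches, at -171 to -163 and -153 to -145. In the Irf2 stretch the capitals join an ETS-IRF match, an overlapping ISRE core match and, further on, a GAS match. In the Stat2 stretch an ISRE core match and an overlapping ETS-IRF match lie on the opposite strand, so the letters shown are their complements in reverse order. The windows of Irf3, Irf5, Irf7 and Irf9, and the alternative starts of Irf1 and Irf8, held no match to these letters. Among 32851 windows of this length, counted with 1 chromosome left out, 8.30% held a GAS match, 3.44% an ISRE core and 2.72% an ETS-IRF match. Of the 11 member windows 3, 2 and 2 held one. The forkhead motif GTAAACA, of the kind FoxO factors bind, was in 3.65% of the 32851 windows and in 0 of the 11 member windows. A match is a string of letters and not a bound site. Matches to the GAS pattern stood before Irf1, higher in the KO library, Irf8, lower there, and Irf2, at 98.2% of its WT value. The part of these matches in the values was not tested.

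**Figure D1:**
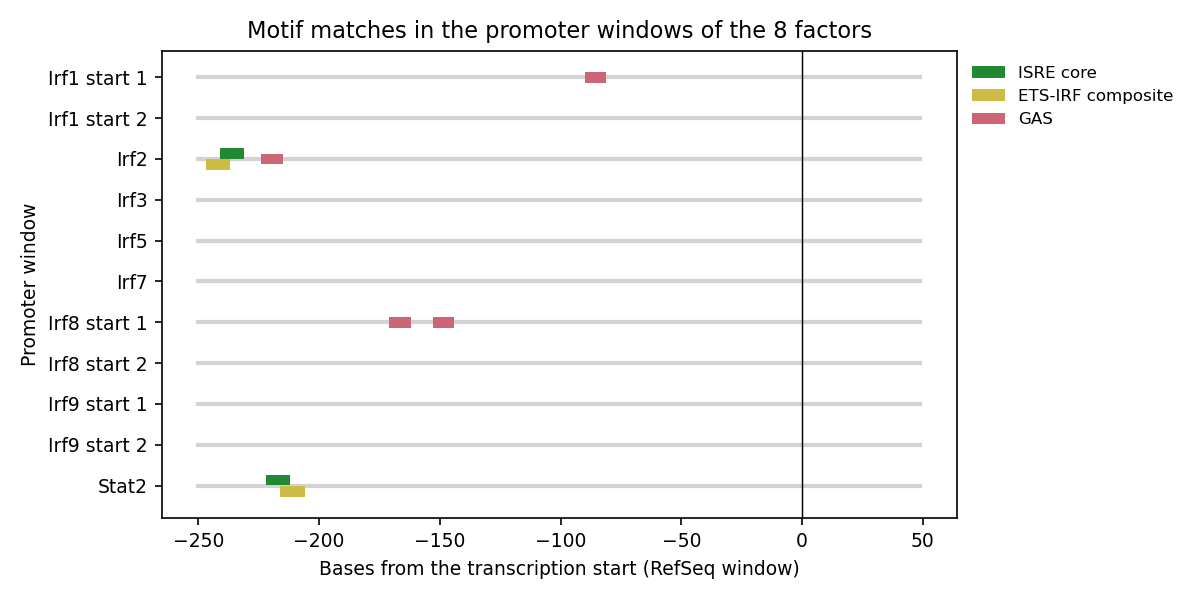
Matches to 3 motifs (coloured bars) in the 11 promoter windows of the 8 genes (grey lines), by distance in bases from the transcription start. Matches lie in the first windows of Irf1 and Irf8 and in those of Irf2 and Stat2, all upstream of the start.

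Differences are given as the log2 ratio of KO to WT after adding 1 FPKM to both, which understates the difference of low genes. Genes with 1 FPKM or more in either library are called measured, and 10003 genes, with all 8 members, were. As a check of the genotype label, Foxo3 stood at 10.3 FPKM in WT and 0.548 FPKM in KO cells. The libraries correlated at r = 0.993 across measured genes, which are not independent replicates, and the ratio of low genes put the KO library at 1.40 times the depth of the WT library. Csf1r, the M-CSF receptor, stood at 697 FPKM in WT and 695 FPKM in KO cells, and Ctsk, the resorption protease cathepsin K, at 6106 and 6862 FPKM (a gene chosen after its values were seen), so both libraries carried macrophage and osteoclast transcripts.

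None of the 8 members differed by 2-fold, the size that stood in for a test, in either direction. Of all measured genes 0.12% were higher and 0.2% lower by that much in the KO library, so a count of 0 among 8 members is close to the background. At 1.5-fold the counts were also 0, against 0.41% higher and 0.94% lower. At 1.2-fold Irf1 was the 1 higher member, against 4.93% of measured genes, and Irf8 the 1 lower member, against 6.23%. The log2 ratio was below 0 for 6 of the 8 members, against 42.4% of measured genes, and above 0 for Irf1 and Irf3, against 57.6%. After trimmed-mean scaling 50.3% of measured genes were above 0, and 6 of the 8 members were still below it. The members' median log2 ratio was -0.04, against 0.03 over all measured genes.

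**Figure D2:**
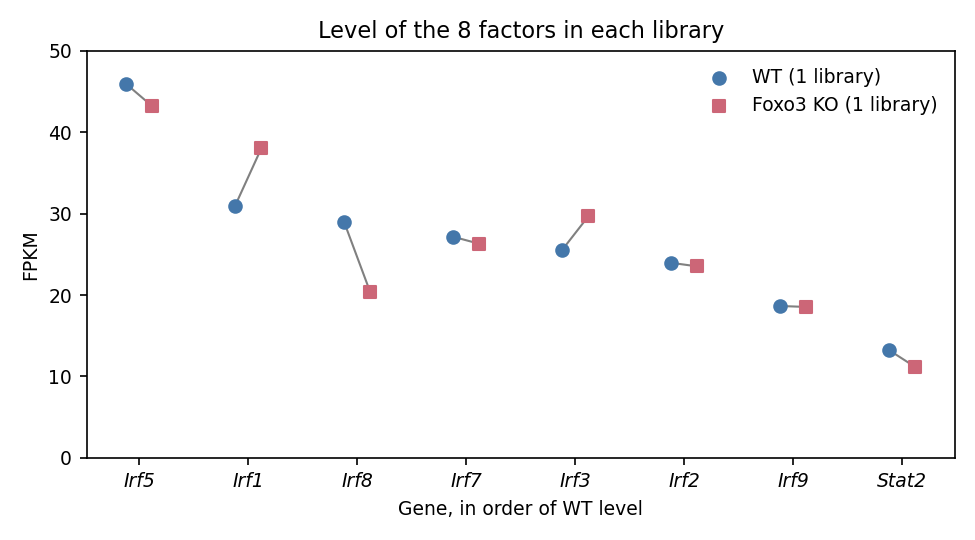
FPKM of each of the 8 genes in the WT library (circles) and the Foxo3 KO library (squares), 1 library each, so there are no error bars. Irf8 reads 29.0 and 20.3 FPKM and Irf1 31.0 and 38.0 FPKM, while the lines of Irf2, Irf7 and Irf9 are nearly flat.

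The order of the members can be read within each library if the values are scaled to transcript length, as FPKM are. That scaling was inferred from genes with values above 0 and under 0.5, split into 4 groups by exonic length. The 10th percentile of the values was 0.0241 in the shortest group and 0.00827 in the longest in WT cells. In KO cells it was 0.0182 and 0.00614. Multiplied by the median length in kilobases, it was 0.0420 and 0.0723 in WT and 0.0303 and 0.0527 in KO cells. The values thus fell with length, but by less than in proportion to it. Irf5 led in both libraries, and Irf9 and Stat2 were the lowest in both. Irf1 kept its place behind Irf5. Irf8 was the third in the WT library, just above Irf7 (27.2 FPKM), Irf3 (25.5 FPKM) and Irf2 (24.0 FPKM), and the sixth in the KO library, below all of those. The neighbours between Irf1 and Irf2 in the WT library spanned 24.0 to 31.0 FPKM, and with no replicates it cannot be said which of them differ beyond their spread. The 8 members summed to 214.4 FPKM in WT and 210.7 FPKM in KO cells.

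Irf8 (chromosome 8, 120736358 to 120756694, + strand, ENSMUSG00000041515.10) had a log2 ratio of -0.49, so the KO value was 70.2% of the WT value. Among the 4303 genes with a mean of 10 to 50 FPKM, the band that holds all 8 members, 1.53% were as far from 0 in either direction. Its exons share no base with another gene in GENCODE M21. Irf8 lies at the edge of the cloud of genes of like level in the plot of all measured genes, well inside the 2-fold lines. Macrophage markers had lower values there too: 14 of 15 had a log2 ratio below 0, against 42.4% of all measured genes. After either scaling between libraries 15 of 15 were below 0, while 50% of all measured genes were above it. Their median was -0.25, and they summed to 4600 FPKM in WT and 4147 FPKM in KO cells, with none at 0. At 1.2-fold 7 were lower, against 6.23% of all measured genes, and at 2-fold 1. The markers were spread widely, from Cd36 (-1.38) and Fcgr3 (-0.83) to Cd68 (-0.02), Csf1r (-0.01) and Itgam (0.02). Of these, Cd36, Fcgr3 and Itgam were chosen after their values were seen. The part of these markers in the difference of Irf8 was not tested. In bulk RNA fewer cells of a type and less RNA per cell cannot be told apart.

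Dendritic cells also express Irf8 and, in the plasmacytoid type, Irf7. Of 12 markers of these cells 3 reached 1 FPKM, and the whole list summed to 49.6 FPKM in WT and 43.7 FPKM in KO cells, most of it Clec10a, at 37.4 and 33.2 FPKM. Tcf4, a factor of the plasmacytoid type, read 9.41 and 7.31 FPKM (-0.32), and Zbtb46, a factor of the conventional type, 1.14 and 1.48 FPKM (0.22). Another 4 defining markers were close to 0: Siglech stood at 0.116 and 0.0478 FPKM, Flt3 at 0.0925 and 0.161 FPKM, Xcr1 at 0.209 and 0.308 FPKM and Clec9a at 0.0665 and 0.137 FPKM. Ly6d was listed at 0 in the WT library. Neutrophil markers summed to 167.1 and 162.7 FPKM, with S100a8 (70.2 and 67.0 FPKM) the most abundant. Of the 9 measured, 3 were above 0, against 57.6% of all measured genes. T, B and NK cell markers summed to 13.2 and 12.7 FPKM, nearly all of it Cd4 (6.77 and 6.27 FPKM) and Cd5 (6.27 and 6.17 FPKM), with Cd3e listed at 0 in both libraries. Stromal markers summed to 9.74 and 9.66 FPKM.

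Irf1 (chromosome 11, 53770014 to 53778374, + strand, ENSMUSG00000018899.16), an interferon-inducible activator, had a log2 ratio of 0.29. Its KO value was 123% of the WT value, and 6.83% of genes at 10 to 50 FPKM lay as far from 0. The value sat close to 1.2-fold: it was 0.26 after trimmed-mean scaling, after centring on the median gene and with a pseudocount of 5, which is below that size. The Irf1 to Irf8 ratio was 1.07 in WT and 1.87 in KO cells, a shift of 1.75-fold that no scaling between libraries can alter. Irf1 and Irf8 had the highest and lowest log2 ratios of the members, so every other pair shifted by less. No background for such a pair was computed. Irf2 (chromosome 8, 46739732 to 46847458, + strand), which competes with IRF1, read 24.0 and 23.5 FPKM (log2 ratio -0.03). The Irf1 to Irf2 ratio was therefore 1.29 in WT and 1.62 in KO cells. Exons of Irf1 share 135 bases, or 3.40% of its exonic sequence, with the opposite-strand model Gm17334, and strand use in counting is not given.

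**Figure D3:**
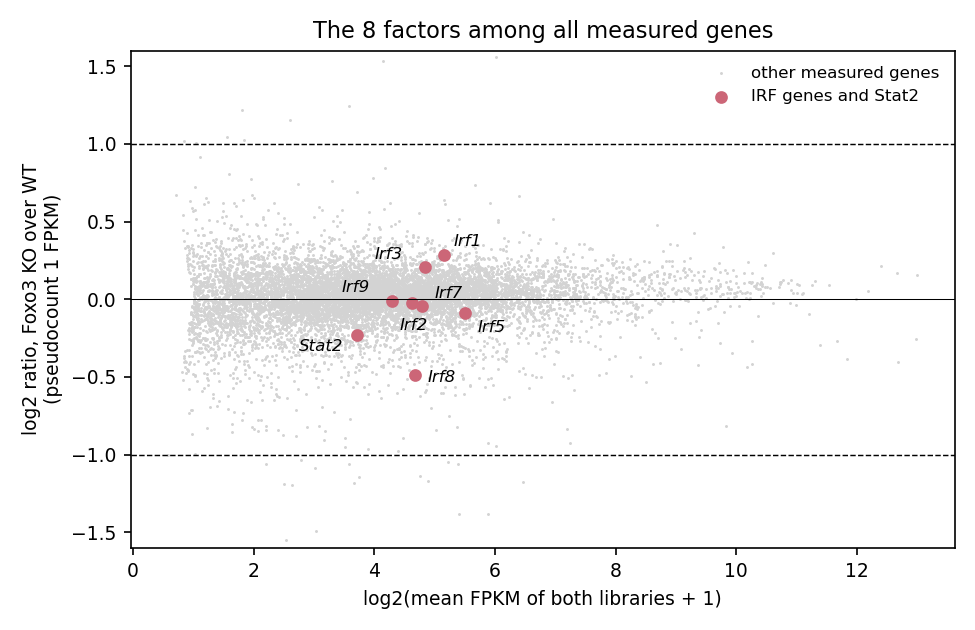
Log2 ratio of Foxo3 KO over WT (vertical) against log2 mean level (horizontal) for the measured genes (grey), with the 8 members in red and dashed lines at 2-fold. Irf8 (-0.49) lies lowest and Irf1 (0.29) highest of the members, all inside the lines, and 5 measured genes fall outside the plotted range.

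Of the factors that sensors activate, Irf3 (chromosome 7, 44997648 to 45002848, + strand), the constitutive trigger of interferon-beta, read 25.5 FPKM in WT and 29.7 FPKM in KO cells. Its log2 ratio of 0.21 was matched or passed in size by 13.6% of genes at 10 to 50 FPKM. Irf7 (chromosome 7, 141262706 to 141266481, - strand), which amplifies the interferon response and is itself interferon-induced, read 27.2 and 26.3 FPKM (-0.05). Irf7 thus stood above Irf3 in the WT library, with a ratio of 1.06, and below it in the KO library, with a ratio of 0.886. Irf5 (chromosome 6, 29526625 to 29541871, + strand), which drives inflammatory cytokine genes in macrophages, read 45.9 and 43.2 FPKM (-0.09). Exons of Irf5 share 411 bases, 14.2% of its exonic sequence, with Tnpo3 on the other strand, more than for any other member. Irf3 shares 88 bases with Bcl2l12 and Irf7 45 bases with Phrf1.

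Of the pair that acts through the ISRE, Stat2 (chromosome 10, 128270559 to 128292849, + strand) read 13.2 FPKM in WT and 11.1 FPKM in KO cells. Its log2 ratio was -0.23, and 11.1% of genes at 10 to 50 FPKM were as far from 0. Irf9 (chromosome 14, 55603571 to 55610030, + strand), the subunit that recognises the DNA element, read 18.7 and 18.5 FPKM, a log2 ratio of -0.01 and the smallest difference of the 8. The Stat2 to Irf9 ratio was 0.709 in WT and 0.602 in KO cells. Irf9 shares 123 exonic bases with Rnf31 on its own strand.

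Of 7 other genes of the families looked at, 4 were measured, with a median of -0.04. They gave 1 above and 3 below 0, against 57.6% and 42.4% of all measured genes. After either scaling they gave 0 and 4, while 50% of all measured genes were above 0. Stat6, which acts for interleukin-4, stood at 43.9 and 42.1 FPKM and was the most abundant of them. Stat5b, which acts for growth factors and cytokines, was farthest from 0 (8.80 and 7.05 FPKM, -0.28), and its close relative Stat5a read 6.56 and 6.48 FPKM (-0.02). Irf4, an IRF with roles in lymphocytes and osteoclasts, and a gene chosen after its values were seen, stood at 0.470 and 0.560 FPKM and was not measured by the 1 FPKM rule.

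Upstream of the factors, interferon genes themselves were nearly all listed at 0. Of 20 interferon ligand genes found, 19 were listed at 0 in both libraries, Ifnb1 and Ifng among them, and Ifna13 read 0.0522 and 0.0375 FPKM. A listing at 0 does not show that no transcript was present. The receptor and JAK kinase genes gave 6 of 8 measured genes below 0, against 42.4% of all measured genes. Both scalings left that count as it was, and neither could have lowered it, while 50% of all measured genes were then above 0. The median was -0.08 and none was at 1.2-fold. Ifnar1, a type I interferon receptor chain, read 34.3 and 31.0 FPKM, Ifngr2, a chain of the interferon-gamma receptor, 105.0 and 116.5 FPKM, and the kinase gene Tyk2 21.3 and 24.0 FPKM.

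Genes that sense nucleic acids or relay the signal to IRF3, IRF5 and IRF7 gave 12 of 27 measured genes above 0 and 15 below. Of all measured genes 57.6% were above and 42.4% below. After either scaling the list gave 9 and 18, while 50% of all measured genes were above 0. Its median as reported was -0.02. At 1.2-fold 7 were lower and 1 higher, against 6.23% and 4.93% of all measured genes. The lowest was Tlr7, a sensor of single-stranded RNA, at 41.4 FPKM in WT and 28.6 FPKM in KO cells (-0.52). Its neighbour on chromosome X, Tlr8, read 27.8 and 20.5 FPKM (-0.42), and Ikbke, a kinase that phosphorylates IRF3 and IRF7, 14.8 and 10.8 FPKM (-0.43). Tbk1, the related kinase and chosen after its values were seen, read 38.2 and 38.3 FPKM.

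Among genes that restrain or pair with these factors, 11 of 14 measured feedback genes were above 0, against 57.6% of all measured genes. After either scaling 9 were above 0, against 50% of all measured genes. The median as reported was 0.15. Irf2bpl, of the IRF2-binding protein family, read 8.58 and 11.2 FPKM (0.35), and Pias4, a SUMO ligase that acts on STAT proteins, 13.8 and 16.3 FPKM (0.22). Usp18, an interferon-induced inhibitor of receptor signalling, went the other way at 6.94 and 5.35 FPKM (-0.32). The DNA-binding partners gave 6 of 9 above 0, against 57.6% of all measured genes, but 4 after either scaling, against 50%. Spi1, which encodes PU.1 and is listed in the files as Sfpi1, stood at 403 FPKM in WT and 466 FPKM in KO cells (0.21), opposite in sign to its partner Irf8. Batf2, which works with IRF1, read 3.41 and 5.05 FPKM (0.46), and Etv6, an ETS repressor, 7.99 and 8.84 FPKM.

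The genes known to be driven through these factors formed lists of opposite sign. Genes driven through STAT2 and IRF9 were below 0 in 23 of 29 cases, against 42.4% of all measured genes. After either scaling 25 were below 0, while 50% of all measured genes were above it. Their median was -0.13. At 1.2-fold 5 were lower and 1 higher, against 6.23% and 4.93% of all measured genes, and at 2-fold none. Oasl2, an antiviral 2′-5′ oligoadenylate synthetase-like gene, read 14.4 FPKM in WT and 10.6 FPKM in KO cells, the nuclear body gene Sp100 17.91 and 13.96 FPKM, and Parp14, an ADP-ribosyltransferase gene, 22.7 and 18.0 FPKM. Isg15, chosen after its values were seen, differed in sign from most of the list at 19.97 and 23.7 FPKM. The part of the macrophage markers, whose median was -0.25, in this list was not tested.

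Genes driven through GAS elements or IRF1 were above 0 in 16 of 20 cases, against 57.6% of all measured genes. After either scaling 15 were above 0, against 50%. Their median was 0.17. The list's summed level had the opposite sign, 3020 FPKM in WT and 2942 FPKM in KO cells, because B2m, chosen after its values were seen, makes up most of it and read 2424 and 2272 FPKM. At 1.2-fold 4 were higher and 1 lower, against 4.93% and 6.23% of all measured genes. Of the 4 higher genes, Iigp1 (0.853 and 1.55 FPKM), Gbp5 (2.16 and 2.82 FPKM) and Ciita were of low level. Iigp1 and Gbp5 were chosen after their values were seen. Psmb9, at a log2 ratio of 0.26, lay close to 1.2-fold. The immunoproteasome genes Psmb9 (65.9 and 79.3 FPKM) and Psmb10 (68.8 and 82.5 FPKM) and the peptide transporter gene Tap2 (74.3 and 88.1 FPKM) led among members of 5 FPKM or more, with log2 ratios of 0.26, 0.26 and 0.24. Psmb9 and Tap2 lie with Tap1 and Psmb8 in a cluster on chromosome 17, and Psmb10 on chromosome 8. Exons of Psmb9 and Tap1 share 212 bases, so the values of Psmb9 and Tap1 may not be independent. Exons of Tap2 share 533 bases, or 14.1% of its exonic sequence, with the opposite-strand model Gm15821 and 165 bases with Gm20496. Nlrc5 and Ciita, activators of class I and class II genes, were chosen after their values were seen. Nlrc5 was the 1 lower gene, at 4.83 and 3.77 FPKM (-0.29), and Ciita read 1.18 and 2.09 FPKM (0.50).

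Of 11 macrophage genes tied to IRF8, 7 were below 0, against 42.4% of all measured genes. The count was also 7 after either scaling, which could not have lowered it, while 50% of all measured genes were above 0. Their median was -0.12. Cybb, the catalytic subunit of the phagocyte oxidase read 96.7 FPKM in WT and 70.0 FPKM in KO cells (-0.46). The protease genes Ctss and Ctsc stood at log2 ratios of -0.28 and -0.24. The 4 above 0, named after their values were seen, were Klf4 (0.32), Il18 (0.23), Cst3 (0.10) and Asah1 (0.06). Macrophage markers, with 14 of 15 below 0 and a median of -0.25, had the same sign as this list, and their part in it was not tested. Osteoclast genes were above 0 in 10 of 15 cases (9 after trimmed-mean scaling), against 57.6% of all measured genes (50.3% after that scaling). The median of the osteoclast genes was 0.09. Car2, carbonic anhydrase, read 172.0 and 215.3 FPKM, the protease gene Mmp9 5009 and 5815 FPKM, and the integrin gene Itgb3 101.3 and 83.2 FPKM. Nfatc1, chosen after its values were seen, read 181 and 206 FPKM (0.19). None of these lists was tested against other genes.

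**Figure D4:**
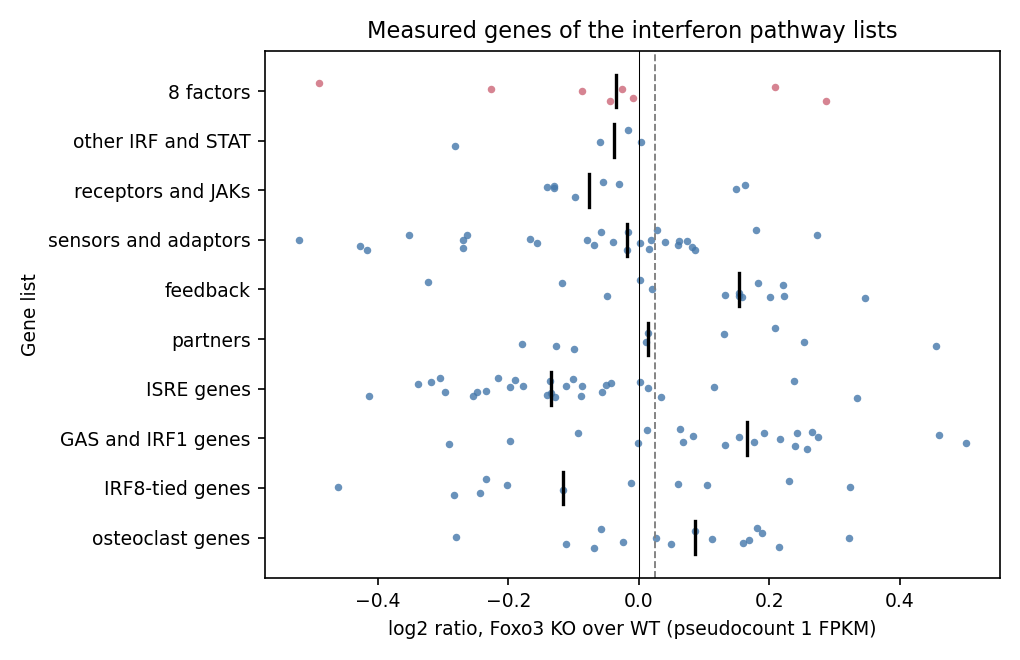
Log2 ratio of Foxo3 KO over WT for each measured gene (points) of the 8 factors and 9 pathway lists, with the median of each list (black bar) and of all measured genes (dashed line, 0.03). The bar of the ISRE genes lies at -0.13 and that of the GAS and IRF1 genes at 0.17, with points of both lists on either side of 0.

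The direction of every member held in all 7 settings tried, shown in the plot of log2 ratios under 5 settings for those that alter the value. Irf8 ranged from -0.52 to -0.42, Irf1 from 0.26 to 0.29, Irf3 from 0.18 to 0.21 and Stat2 from -0.25 to -0.17. Irf9, the member closest to 0, ranged from -0.03 to -0.01, so its sign carries little. Both scalings lower every KO value by nearly the same small factor, and could not have reversed a member or listed gene that was already below 0.

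**Figure D5:**
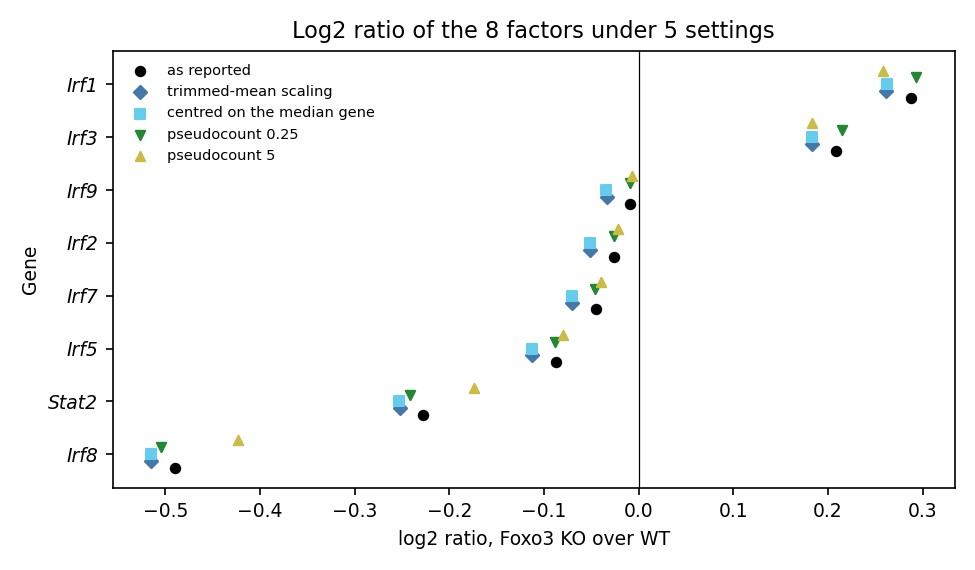
Log2 ratio of each of the 8 genes (vertical axis) as reported and under 2 scalings between libraries and 2 other pseudocounts (symbols). Irf1 and Irf3 stay above 0 and the other 6 stay below it, and Irf8 lies farthest from 0 in each setting.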

How the data were processed

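RNA was sequenced from 1 WT and 1 Foxo3 KO library, grouped by genotype per the labels. Values deposited by the authors were taken to be FPKM. No header or label names that unit, but they are not whole numbers and their sums differ (530701 for WT, 540601 for KO). TopHat, edgeR and mm10 appear in the submitters' processing notes without version or role. Quantifier, annotation and any scaling between libraries were not given in the sources used here, and read totals are unknown. A constant of 0.000001 was subtracted. An item of the lists is not reported here.

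The members, lists and motifs were chosen with earlier results of these data known, the ETS-IRF and forkhead motifs last. Named were the members and the 3 genes farthest from 0 in each pathway list at 5 FPKM or more in 1 library. Of each marker list the 3 most abundant genes were to be named, and Foxo3 as a check of the label. Other genes are marked as chosen after their values were seen. Outside these rules, but not marked where they appear, were the interferon ligand genes, Siglech, Flt3, Xcr1, Clec9a, Ly6d and Cd3e. Relative depth came from ratios of 1657 genes under 0.15 FPKM in both libraries. Positions and exon overlaps come from GENCODE M21 (mm10), and promoters from RefSeq on GRCm38.p6, the same assembly. Alternatives were trimmed-mean scaling, median centring, pseudocounts of 0.25 and 5, a minimum of 10 FPKM or none, and folds of 1.5 and 1.2. The 2-fold calls and the trimmed-mean scaling were tested on simulated data, with known differences planted in genes of 10 FPKM or more. Genes with no planted difference were under 2-fold apart from the outset, so they could not be called. The 1.2-fold counts, sign counts and medians were not covered. Python 3.11.15, numpy 2.4.6, pandas 2.3.3 and matplotlib 3.10.9 were used.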

Additional observations from a re-analysis of the deposited data

How the results depend on the processing

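All 48 recomputed log2 ratios of the 8 members moved by less than 0.184, the spread (SD) of log2 ratios among genes at 10 to 50 FPKM, and kept their sign, as the small size of each alternative largely ensured. The count of members lower by 2-fold, 0, was 1 at 1.2-fold, and the count of higher members, also 0, was 1 at 1.2-fold, which follows from the threshold. Irf1 was not past 1.2-fold after trimmed-mean scaling, after median centring or with a pseudocount of 5. Of 60 recomputed medians, of the members and 9 lists, 48 stayed within 1.5 times the reported value, 9 moved by more and 3 changed sign. Under trimmed-mean scaling and median centring the members' median went from -0.035 to -0.061 in both, that of the other IRF and STAT genes from -0.038 to -0.062 and -0.063 (-0.060 with no minimum), and that of the sensors from -0.018 to -0.043 in both. The median of the ISRE genes went from -0.134 to -0.084 with a pseudocount of 5, and that of the genes tied to IRF8 from -0.117 to -0.180 with a minimum of 10 FPKM. The median of the DNA-binding partners changed sign, from 0.0143 to -0.0115 after trimmed-mean scaling and -0.0110 after median centring. That of the sensors (0.0087) changed sign with a minimum of 10 FPKM. No paired analysis was possible because there is a single library per genotype, and for the same reason no library could be left out. Depth limits genes of low FPKM most, and all members were above 11 FPKM.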

Other observations

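Promoter motifs were set beside the expression of the measured genes with a RefSeq window, as a description with no test. The chromosome left out of the window counts was left out here too. Of 298 such genes with an ISRE core match, 11.1% were lower by 1.2-fold in the KO library and 6.04% higher, while of 7460 genes without a match 5.76% were lower and 4.62% higher. Their medians, 0.016 and 0.027, were close together, so the difference lay in the tails. Of 643 genes with a GAS match 6.53% were lower and 5.13% higher, near the 5.92% and 4.64% of genes without one. Of 226 genes with an ETS-IRF match 8.41% were lower and 2.65% higher, beside 5.89% and 4.74% of the 7532 genes without one.

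The forkhead motif GTAAACA, absent from the windows of the 8 members, was present for 229 measured genes. Of these 53.3% had a log2 ratio below 0 and 11.8% were lower by 1.2-fold, beside 41.9% and 5.79% of the 7529 genes without it. An ISRE core match was found for 9 of 22 genes of the list driven through STAT2 and IRF9 and 8 of 15 of the GAS and IRF1 list that had a window, against 3.99% of all genes with one. A GAS match was found for 6 of 22 and 4 of 15, against 9.55%. The lists whose medians had opposite signs both held matches to either element. The part of these matches in the signs of the lists was not tested.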
